A study of Cricetulus griseus with 16 samples.

Results

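The genes described here are the 4 CDC-like kinases, Clk1, Clk2, Clk3 and Clk4, and Rsrp1, which codes for an arginine- and serine-rich protein, in Chinese hamster ovary (CHO) cells exposed to heat. They were chosen by name because Clk1 and Rsrp1 had responded to mild heat in an earlier look at the same counts, so the contrast of 40 °C for 1 h with 37 °C fixed the choice, and its values are given as a description without a test. All 5 names were found among the 20824 genes of the count table, as ENSCGRG00001018410 (Clk1), ENSCGRG00001014237 (Clk2), ENSCGRG00001022300 (Clk3), ENSCGRG00001016893 (Clk4) and ENSCGRG00001024049 (Rsrp1). All 5 passed the filter on low counts in every comparison, and no member had fewer than 158 reads in any of the 15 libraries used.

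CDC-like kinases phosphorylate SR proteins, the splicing factors with stretches of alternating arginine and serine that bind pre-mRNA and help to choose splice sites. Phosphorylation moves SR proteins between nuclear speckles and the sites of splicing, and in heated cells some SR proteins are known to lose phosphate through protein phosphatase 1. The Clk1 gene is itself known to give transcripts that keep introns and stay in the nucleus, beside the mRNA that codes for the active kinase, and Clk4 is its closest relative. Less is known of the product of Rsrp1 than of the kinases.

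RNA was sequenced from the CHO line CCL-61, an established ovary-derived line, grown at 37 °C (control), or heated to 40 °C for 1 h, to 40 °C for 6 h, or to 42.5 °C for 1 h. None of the groups carried a genetic change, and each group had 4 biological repeats, lettered A to D. No recovery phase is described for these cultures. Because each library holds the RNA of a whole culture, a transcript made in fewer cells and a lower amount per cell cannot be told apart.

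Total counts were 10504192 to 14668365 per library. The 37 °C library D stood apart, with a correlation of log2 levels of 0.974 to 0.9763 with libraries A, B and C against 0.9954 to 0.9961 among those, over 10565 genes. It was left out of the control mean, its values are given below, and results that differ with it are named. The mesenchymal gene Vim was at 1820 to 2680 CPM (reads of a gene as a share of all counted reads in ppm, with library sizes scaled by TMM), whereas Epcam and Ptprc, epithelial and leukocyte markers, had at most 1 read in any library, the endothelial gene Pecam1 had at most 4, and the granulosa cell genes Fshr and Cyp19a1 had 0 reads in all 16, which allows up to 3 reads or 0.205 to 0.286 CPM per library, counting error only. The epithelial cadherin gene Cdh1 was at 1.7 to 4.14 CPM.

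Clk1, the kinase best known for heat-dependent splicing of its own transcript, had higher levels in all heated groups than at 37 °C, with the highest mean at 42.5 °C. At 37 °C its level was 85.4, 76.4 and 85.2 CPM in libraries A, B and C (82.3 ± 5.11, SD, n = 3) and 98.7 CPM in library D. At 40 °C for 1 h it was 224, 147, 225 and 178 CPM in libraries A to D (193 ± 37.8, n = 4), and at 40 °C for 6 h it was 109, 135, 128 and 129 CPM (126 ± 11.4, n = 4). At 42.5 °C for 1 h the libraries gave 221, 281, 200 and 313 CPM (254 ± 52.2, n = 4). Every heated library was above every 37 °C library, library D included, and the lowest value after 1 h at 40 °C lay above the highest after 6 h. The 40 °C 1 h and 42.5 °C libraries overlapped.

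**Figure D1:**
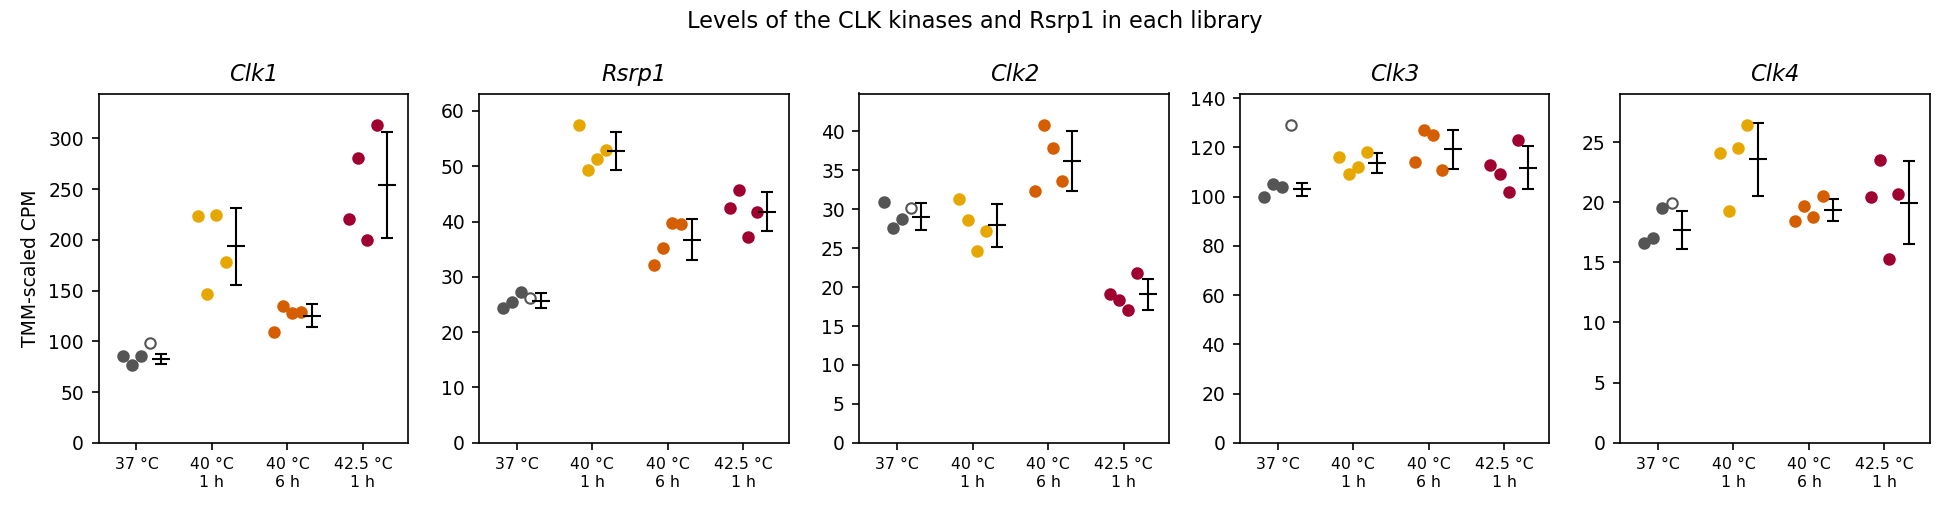
Levels of the 5 genes in every library, as TMM-scaled CPM on linear axes that start at 0, by group (x axis). Filled points are libraries A to D from left to right, the open point is 37 °C library D, and the bars are the mean ± SD without it; Clk1 reached 313 CPM at 42.5 °C, Rsrp1 was highest after 1 h at 40 °C, and Clk2 was lowest at 42.5 °C with at most 21.8 CPM.

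On the log2 scale, Clk1 was 1.23 (SE 0.12) higher after 1 h at 40 °C than at 37 °C, a 2.35-fold difference, given without a test because this contrast chose the gene. The fitted differences from 37 °C that could be tested use the same 37 °C libraries as that contrast, so for Clk1 they are not independent of the choice. After 6 h at 40 °C Clk1 rose by 0.61 (SE 0.07, 1.52-fold, edgeR adjusted p = 1.01e-05), where a call asks for an adjusted p under 0.05 and a change of at least 1.5-fold. This call stood close to the fold limit. It was lost with all 4 control libraries (0.54, adjusted p = 0.00824), without 37 °C library B (0.56) and without 40 °C 6 h library B (0.57), although the adjusted p was 0.00824 or lower in all 14 alternatives tried. At 42.5 °C Clk1 rose by 1.62 (SE 0.12, 3.07-fold, adjusted p = 6.45e-08), with a range of 1.49 to 1.72 over 14 alternatives. Between the heated groups that took no part in choosing the gene, Clk1 was higher at 42.5 °C for 1 h than at 40 °C for 6 h by 1.01 (SE 0.10, 95% interval 0.79 to 1.23, adjusted p = 8.83e-07), in 4 of 4 libraries. Its level after 6 h at 40 °C was lower than after 1 h by a log2 difference of -0.62 (SE 0.10), and its level at 42.5 °C exceeded that at 40 °C for 1 h by 0.39 (SE 0.13), both as descriptions.

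Rsrp1 had its highest level after 1 h at 40 °C and not at the higher temperature. Libraries A, B and C at 37 °C gave 24.4, 25.5 and 27.2 CPM (25.7 ± 1.43, n = 3), and library D gave 26.1 CPM. The 40 °C 1 h libraries gave 57.4, 49.4, 51.3 and 53 CPM (52.8 ± 3.39, n = 4). After 6 h at 40 °C the values were 32.2, 35.2, 39.8 and 39.6 CPM (36.7 ± 3.67, n = 4). At 42.5 °C they were 42.5, 45.7, 37.2 and 41.7 CPM (41.8 ± 3.49, n = 4). The 1 h libraries at 40 °C were above all others, the 37 °C libraries were below all others, and the remaining groups overlapped each other.

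The log2 difference of Rsrp1 at 40 °C for 1 h from 37 °C was 1.04 (SE 0.07, 2.06-fold), without a test. After 6 h at 40 °C it stood at 0.51 (SE 0.08, adjusted p = 0.000235), which at 1.43-fold stayed under the fold limit of a call. At 42.5 °C Rsrp1 rose by 0.69 (SE 0.07, 1.62-fold, adjusted p = 3.32e-06). Both tests use the 37 °C libraries of the contrast that chose Rsrp1, so they are not independent of that choice. The tested difference of the 42.5 °C libraries from those at 40 °C for 6 h was 0.18 (SE 0.08, 95% interval 0.01 to 0.34, adjusted p = 0.0683) and was not called. As a description, Rsrp1 was lower than at 40 °C for 1 h by a log2 difference of -0.52 (SE 0.07) after 6 h and of -0.34 (SE 0.07) at 42.5 °C.

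Clk2, a kinase of SR proteins that also acts in insulin signalling in liver, went down at 42.5 °C. Its level was 30.9, 27.6 and 28.7 CPM at 37 °C (29.1 ± 1.68, n = 3) with 30.2 CPM in library D. After 1 h at 40 °C it was 31.3, 28.6, 24.7 and 27.2 CPM (28 ± 2.76, n = 4), overlapping the controls. After 6 h at 40 °C it was 32.4, 40.8, 37.9 and 33.7 CPM (36.2 ± 3.88, n = 4), above every 37 °C library. At 42.5 °C it was 19.1, 18.3, 17.1 and 21.8 CPM (19.1 ± 2, n = 4), below every library of the other groups.

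Against 37 °C, Clk2 fell by 0.61 on the log2 scale at 42.5 °C (SE 0.09, adjusted p = 4.15e-05), a fold of 0.654 that lay just past the fold limit and was lost without 37 °C library A (-0.57) or without 42.5 °C library C (-0.56). Against 40 °C for 6 h, Clk2 at 42.5 °C fell by 0.93 (SE 0.09, 95% interval -1.12 to -0.74, adjusted p = 4.67e-07), and the range over 14 alternatives was -1 to -0.86. Against 40 °C for 1 h the difference was -0.56 (SE 0.09, adjusted p = 0.000209), a fold of 0.679 that was not called, and it became a call without 40 °C 1 h library C (-0.61) or without 42.5 °C library D (-0.63). The higher level after 6 h at 40 °C was 0.31 (SE 0.08, adjusted p = 0.00913) over 37 °C and 0.37 (SE 0.09, adjusted p = 0.00685) over 40 °C for 1 h, both under the fold limit. With all 4 control libraries the adjusted p against 37 °C was 0.0591 (0.00168 to 0.0591 over 14 alternatives).

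Clk3, a kinase of the same family, was not called in any comparison. Its level was 100, 105 and 104 CPM at 37 °C (103 ± 2.52, n = 3), with 129 CPM in library D. It was 116, 109, 112 and 118 CPM at 40 °C for 1 h (114 ± 3.78, n = 4), 114, 127, 125 and 111 CPM at 40 °C for 6 h (119 ± 8.09, n = 4) and 113, 109, 102 and 123 CPM at 42.5 °C (112 ± 8.57, n = 4). Library D was thus above every heated library, whereas A, B and C were below every 40 °C library. The difference from 37 °C was 0.21 (SE 0.06, adjusted p = 0.00957) after 6 h at 40 °C, 1.16-fold, and 0.11 (SE 0.06, fold interval 0.998 to 1.17, adjusted p = 0.107) at 42.5 °C. With library D included, the 6 h value was 0.12 (adjusted p = 0.405; 0.00255 to 0.405 over 14 alternatives), and the untested value for 40 °C for 1 h went from 0.15 to 0.06.

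Clk4, the closest relative of Clk1, was not called in any comparison. At 37 °C it was at 16.6, 17 and 19.5 CPM (17.7 ± 1.55, n = 3), with 19.9 CPM in library D. At 40 °C for 1 h it was at 24.1, 19.3, 24.5 and 26.4 CPM (23.5 ± 3.02, n = 4), and at 40 °C for 6 h at 18.4, 19.7, 18.8 and 20.5 CPM (19.3 ± 0.962, n = 4). The 42.5 °C libraries gave 20.4, 23.5, 15.3 and 20.7 CPM (20 ± 3.4, n = 4), and their lowest value was below every 37 °C library.

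The log2 difference of Clk4 from 37 °C was 0.42 (SE 0.10) after 1 h at 40 °C, untested, with overlapping groups. It was 0.13 (SE 0.09, 95% interval -0.05 to 0.31, adjusted p = 0.278) after 6 h and 0.17 (SE 0.12, 95% interval -0.07 to 0.42, adjusted p = 0.244) at 42.5 °C. From 1 h to 6 h at 40 °C it differed by -0.28 (SE 0.09, adjusted p = 0.0396), under the fold limit, and without a library the adjusted p was up to 0.11. Reads that fit both Clk1 and Clk4 could have been divided between them in counting. How such reads were treated is not given in the sources used here, and their part in these values was not tested.

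Counted by comparison, 1 of the 5 genes was called after 6 h at 40 °C (Clk1, higher), where 3.11% of the 10499 genes tested were called, 1.45% higher and 1.66% lower. At an adjusted p under 0.05 without the fold limit it was 4 of 5, beside 29.4% of genes. At 42.5 °C against 37 °C, 3 of 5 were called, Clk1 and Rsrp1 higher and Clk2 lower, beside 7.51% of 10470 genes, 2.83% higher and 4.68% lower. Without the fold limit it was the same 3 of 5, beside 4510 of 10470 genes. The calls of Clk1 and Rsrp1 against 37 °C share the control libraries of the contrast that chose them. At 42.5 °C for 1 h against 40 °C for 6 h, 2 of 5 were called, Clk1 higher and Clk2 lower, beside 8.25% of 10427 genes, 2.53% higher and 5.72% lower. Without the fold limit it was again 2 of 5, beside 4904 of 10427 genes. Of Clk2, Clk3 and Clk4, the members whose choice did not rest on the 40 °C 1 h level, 0 of 3 were called between 6 h and 1 h at 40 °C, beside 1.28% of genes (0.556% higher and 0.728% lower), and 0 of 3 between 42.5 °C and 40 °C at 1 h, beside 5.27% (1.75% higher and 3.51% lower). DESeq2 called 0 of 3 in both as well, and 2 of 3 had an unadjusted edgeR p under 0.05 in each, beside 32.3% and 45.9% of all genes. Without the fold limit, the adjusted p alone gave 2 of 3 and 1 of 3, beside 18.5% and 36.1%. In the contrast that chose the genes, 0.334% of 10494 genes were called, 0.276% higher and 0.0572% lower, which is given only as the background, since the members carry no test there. The median log2 difference over all genes lay between -0.002 and 0.003 in the 6 comparisons.

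**Figure D2:**
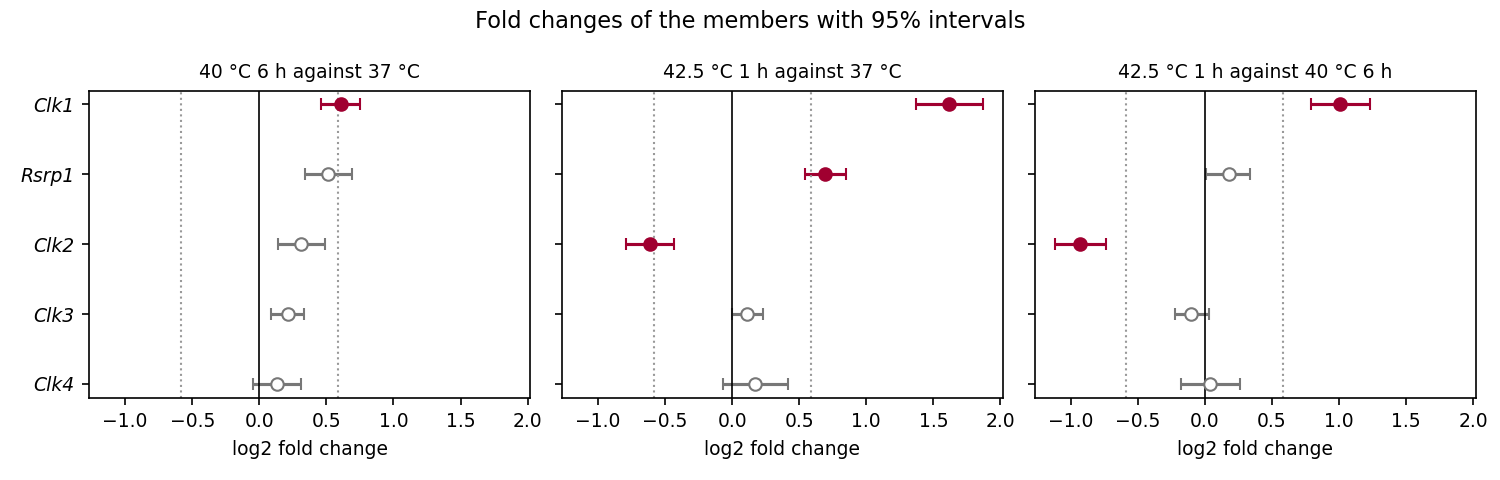
Log2 fold changes (x axis) of the 5 genes with 95% intervals in the 3 comparisons in which all were tested. Filled red points were called, open grey points were not, and dotted lines mark 1.5-fold either way; Clk1 was called in all 3 comparisons and Clk2 lay on the lower side in both that hold the 42.5 °C libraries.

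The balance between the genes was measured as the ratio of their read counts in the same library, which needs no scaling between libraries. Since transcript lengths were not used, a ratio says nothing of which gene had more transcripts, only how the balance differed between groups. Clk1 to Clk2 was 2.76, 2.77 and 2.97 at 37 °C (2.83 ± 0.118, n = 3) and 3.26 in library D. It was 7.15, 5.13, 9.09 and 6.55 at 40 °C for 1 h, and 3.37, 3.31, 3.38 and 3.84 at 40 °C for 6 h (3.48 ± 0.245, n = 4). At 42.5 °C the ratio was 11.6, 15.4, 11.7 and 14.4 (13.3 ± 1.92, n = 4), above every other library. Thus the balance after 6 h at 40 °C was near that of the controls, though all 4 of its ratios were above every 37 °C library.

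Clk1 to Rsrp1 followed another course. It was 3.21 ± 0.264 (n = 3) at 37 °C, 3.65 ± 0.617 (n = 4) after 1 h and 3.43 ± 0.283 (n = 4) after 6 h at 40 °C, with overlapping ranges. The 42.5 °C libraries stood above all others, with 5.2, 6.14, 5.38 and 7.51 (6.06 ± 1.05, n = 4). The balance of Clk1 and Rsrp1 thus overlapped between the controls and both durations of 40 °C, and at 42.5 °C it lay apart. Because both genes were chosen for a rise after 1 h at 40 °C, the choice itself favours similar ratios there and at 37 °C. Clk2 to Clk3 was 0.303 ± 0.0156 after 6 h at 40 °C and 0.17 ± 0.00525 at 42.5 °C (n = 4 each).

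**Figure D3:**
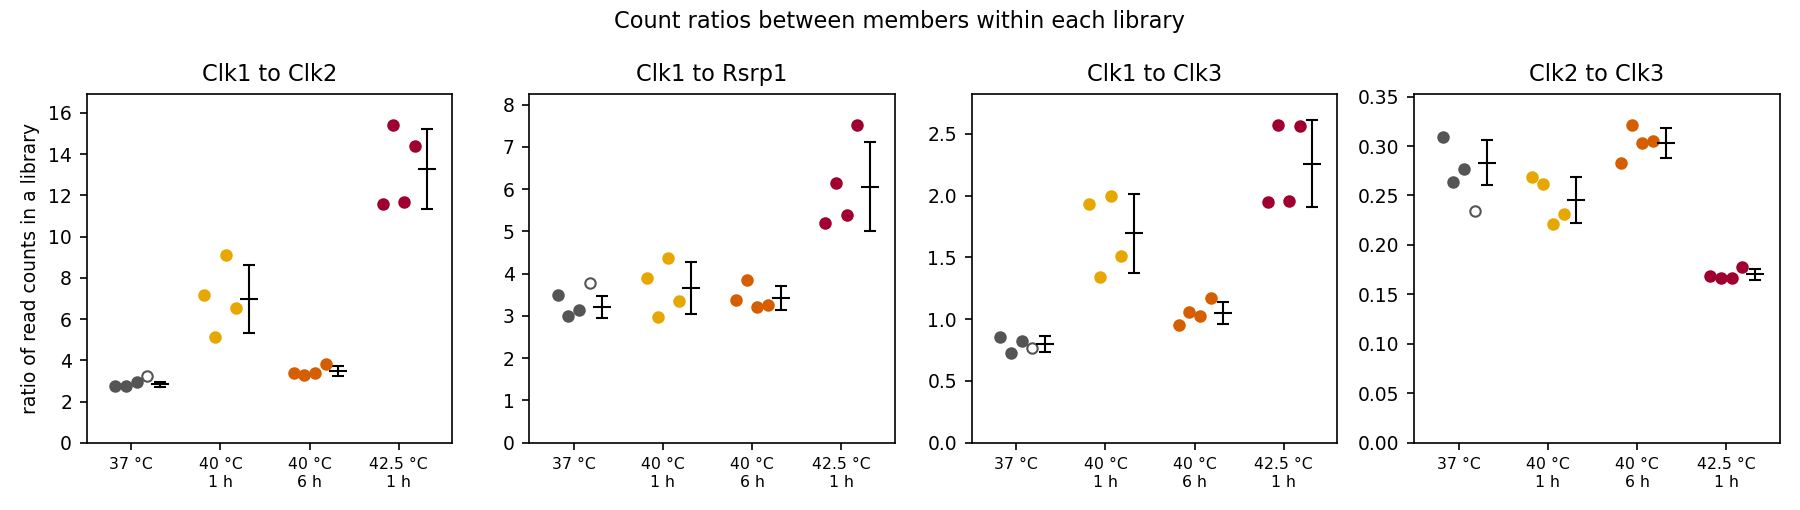
Ratios of read counts between members in each library (y axes, linear, from 0) by group. Points are libraries A to D, the open point is 37 °C library D, and bars are the mean ± SD without it; Clk1 to Clk2 was above 11 in the 42.5 °C libraries, and Clk1 to Rsrp1 differed little among the other groups.

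The 42.5 °C and the 40 °C 6 h libraries were compared for the 10 ratios by a two-sided exact permutation test, which with 4 against 4 libraries cannot go below p = 0.0286. The 7 ratios that contain Clk1 or Clk2 all reached this smallest p, with an adjusted p of 0.0409 over the 10. They are not 7 separate results, since Clk1 and Clk2 were themselves called, without overlap, between the same libraries. That separation favours the smallest p for any ratio that holds either gene. In this comparison 5615 of 10427 genes had an unadjusted edgeR p under 0.05, which is a test of single genes and not of ratios. The share over all pairs of genes was not computed. The mean log2 ratio of Clk1 to Clk2 differed most, by 1.92, and that of Clk1 to Rsrp1 by 0.81. The 3 ratios among Clk3, Clk4 and Rsrp1 did not pass, with exact adjusted p = 0.371 for Clk3 to Clk4 (difference -0.13), 0.0714 for Clk3 to Rsrp1 (-0.28) and 0.19 for Clk4 to Rsrp1 (-0.16).

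Genes around the phosphorylation of SR proteins were examined by 4 lists, which were chosen with earlier results of these data known and carry no test of their own. Of 16 named kinases of SR proteins and kinases near the CLKs, 16 were found and 13 tested. At 40 °C, for either duration, edgeR and DESeq2 both called 0 of 13 against 37 °C, while 4 after 1 h and 6 after 6 h had an unadjusted edgeR p under 0.05, which 14.8% and 41% of all genes had. At 42.5 °C Dyrk3, a kinase that dissolves stress granules and nuclear speckles, rose by 0.79 (SE 0.11, adjusted p = 2.66e-05), from a mean of 15.6 to 27.1 CPM, and the other 12 were not called, beside 7.51% of all genes called. Dyrk3 was also higher at 42.5 °C than after 6 h at 40 °C (0.74, SE 0.10, adjusted p = 1.39e-05) and after 1 h at 40 °C (0.61, SE 0.10, adjusted p = 0.000159), the last lost without 40 °C 1 h library D (0.58) or 42.5 °C library D (0.54). The median of the 13 was 0.07 at 42.5 °C against 37 °C. There 9 of the 13 had an unadjusted edgeR p under 0.05, beside 5305 of 10470 genes.

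Of the SR proteins and TRA2 genes, the substrates of the kinases, 12 of 14 names were found (not Srsf3 and Srsf8) and 11 were tested. After 1 h at 40 °C edgeR and DESeq2 called 0 of 11, with 6 at an unadjusted edgeR p under 0.05, beside 14.8% of all genes. Srsf5, an SR protein, was the only one called after 6 h (3.11% of all genes) and at 42.5 °C (7.51%). After 1 h at 40 °C its log2 difference was already -0.54 (SE 0.06, adjusted p = 0.000524), at a mean of 162 CPM, just under the fold limit. It fell by 0.72 (SE 0.07, adjusted p = 1.37e-06) after 6 h at 40 °C and by 0.61 (SE 0.07, adjusted p = 7.12e-06) at 42.5 °C, from a mean of 237 CPM to 144 and 156 CPM. The call at 42.5 °C was lost without 37 °C library B (-0.57) or 42.5 °C library D (-0.55). The median of the 11 was -0.23 at 42.5 °C, 0.05 after 6 h and 0.03 after 1 h at 40 °C. An unadjusted edgeR p under 0.05 was found for 7 of the 11 at 42.5 °C, beside 5305 of 10470 genes. After 6 h at 40 °C it was found for 6 of the 11, beside 41% of all genes.

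Of 24 other genes for proteins with RS-rich stretches, 18 were found and tested (not Srrm1, Rsrc1, Srek1, Bclaf1, U2af1 or U2af2), with 0 of 18 called by edgeR or DESeq2 at 40 °C for either duration, although 9 after 1 h and 14 after 6 h had an unadjusted edgeR p under 0.05, beside 14.8% and 41% of all genes. At 42.5 °C against 37 °C, 2 of 18 were called higher and 2 of 18 lower, beside 2.83% and 4.68% of all genes. There 13 of the 18 had an unadjusted edgeR p under 0.05, beside 5305 of 10470 genes. Bclaf1, not found here by name, is listed by the study, through its mouse ortholog, as lower after 6 h at 40 °C and at 42.5 °C. It is not part of these counts. The cyclin L genes, whose products pair with the kinase CDK11 in splicing, went opposite ways, as Ccnl1 rose by 0.63 (SE 0.09, adjusted p = 6.51e-05) and Ccnl2 fell by 0.65 (SE 0.09, adjusted p = 4.49e-05). Srek1ip1 rose by 0.61 (SE 0.17, adjusted p = 0.00935) from a low mean of 4 CPM to 6.08 CPM, and Sfswap, a regulator of splicing, fell by 0.60 (SE 0.06, adjusted p = 8.33e-07). All 4 calls lay near the fold limit: Ccnl1 was lost with all 4 controls (0.55), without 37 °C library B (0.58) and without 42.5 °C library D (0.53), and Ccnl2 without 42.5 °C library C (-0.56). Srek1ip1 was lost with all 4 controls (0.38), without 37 °C library B (0.43) and without 42.5 °C library A (0.52), and Sfswap without 37 °C library C (-0.54) or 42.5 °C library B or C (-0.58 for each). Ccnl2 also fell at 42.5 °C against 40 °C for 1 h by 0.77 (SE 0.09, adjusted p = 6.94e-06) and against 40 °C for 6 h by 0.85 (SE 0.09, adjusted p = 1.36e-06).

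Of 5 genes of protein phosphatase 1, the enzyme that removes phosphate from SR proteins, and its nuclear partners, 4 were found (not Ppp1cc). Ppp1r10, a nuclear targeting subunit, was the 1 of 4 called at 42.5 °C, beside 7.51% of all genes called against 37 °C and 8.25% against 40 °C for 6 h. It fell at 42.5 °C by 0.65 against 37 °C (SE 0.10, adjusted p = 9.27e-05), which was lost without 42.5 °C library C (-0.58), and by 0.73 against 40 °C for 6 h (SE 0.09, adjusted p = 7.15e-06). Against 37 °C, Ppp1r10 stood at -0.35 (SE 0.07, edgeR adjusted p = 0.0128) after 1 h and at 0.07 (SE 0.06, adjusted p = 0.389) after 6 h at 40 °C, neither called. The catalytic subunit genes found, Ppp1ca and Ppp1cb, were not called in any comparison. At 42.5 °C against 37 °C they stood at -0.14 (SE 0.04, adjusted p = 0.0138) and 0.19 (SE 0.04, adjusted p = 0.00182), under the fold limit. By adjusted p alone, 4510 of 10470 genes passed there.

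**Figure D4:**
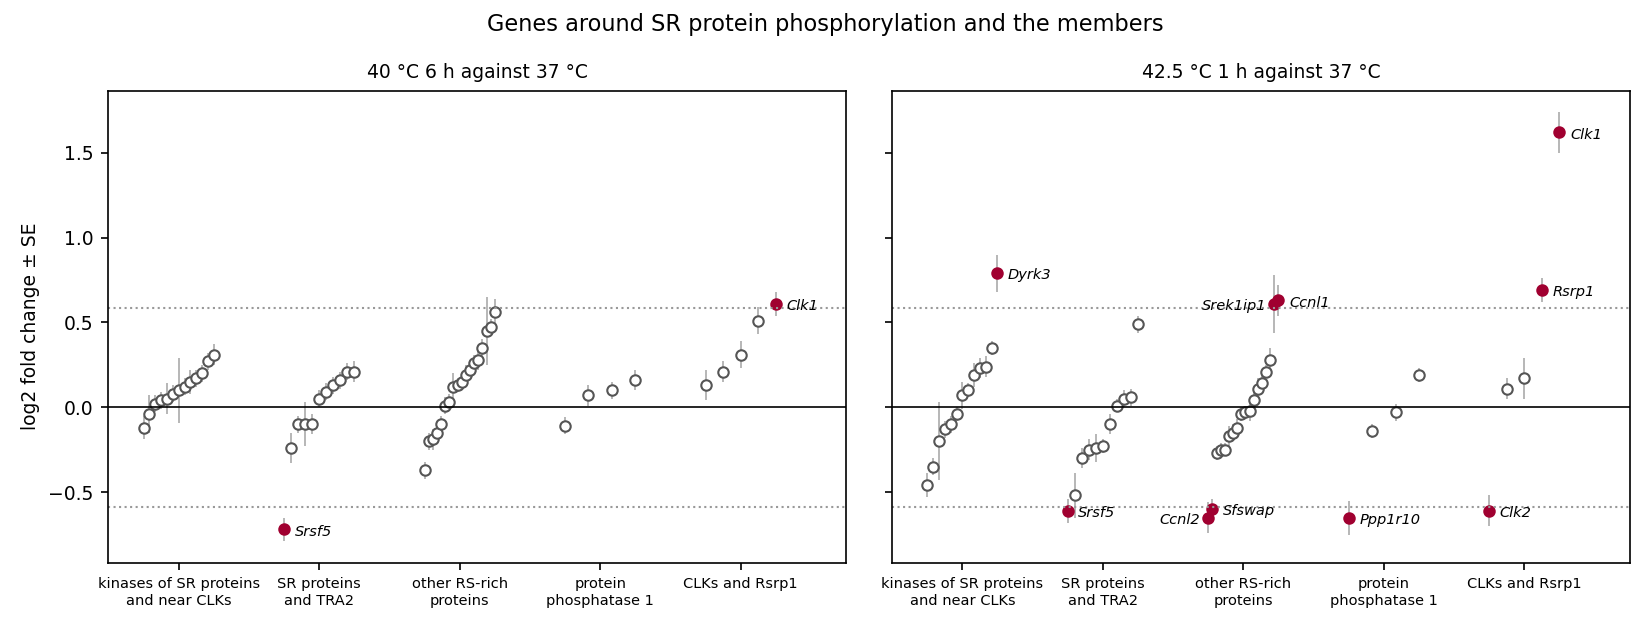
Log2 fold change ± SE (y axis) of every tested gene of the 4 lists and of the 5 members (x axis, genes sorted within each list) after 6 h at 40 °C and at 42.5 °C, each against 37 °C. Filled red points with names were called and dotted lines mark 1.5-fold; at 42.5 °C Clk1 stood at 1.62, above all listed genes, the next being Dyrk3 at 0.79.

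The genes whose levels were most like those of Clk1 over the 15 libraries, among 9362 named genes, were Zbtb1 (Pearson r = 0.955), Cdr2 (0.944), Tiparp (0.942), Slc35e4 (0.938) and Tra2a (0.937). These coefficients describe libraries that share their treatment groups, and they carry no test. All 5 genes had the order of means of Clk1, which their choice by the highest r over the same libraries favours. Tiparp, an ADP-ribosyltransferase gene, went from 110 CPM at 37 °C to 131 CPM after 6 h and 176 CPM after 1 h at 40 °C and 258 CPM at 42.5 °C, and Tra2a, a splicing activator gene and a member of the SR protein list, from 70.1 to 72.6, 86.5 and 98.6 CPM. The lowest coefficients with Clk1 were those of Zfp512b (-0.966), Sash1 (-0.962) and Plk2 (-0.952). Plk2, a polo-like kinase gene, had means of 102 CPM at 37 °C, 69.1 and 56.1 CPM after 6 h and 1 h at 40 °C and 31.8 CPM at 42.5 °C.

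Closest to Rsrp1 were Ier5l (0.893), Zfp207 (0.889), Csrnp2 (0.876), Kansl1l (0.854) and Clk1 itself (0.788). Clk1 and Rsrp1 were both chosen for a rise after 1 h at 40 °C, which favours a high coefficient between them. Ier5l, an immediate early response gene, had means of 5.6 CPM at 37 °C, 11.5 CPM after 1 h and 7.7 CPM after 6 h at 40 °C and 7.35 CPM at 42.5 °C. Like Rsrp1 it was highest after 1 h at 40 °C, which its choice by r favours. The lowest coefficients with Rsrp1 were those of Klf4 (-0.932), Lcmt2 (-0.839) and Irs2 (-0.837). Klf4, a Kruppel-like transcription factor gene, was at 87.7 CPM at 37 °C and lowest, at 60.4 CPM, after 1 h at 40 °C.

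**Figure D5:**
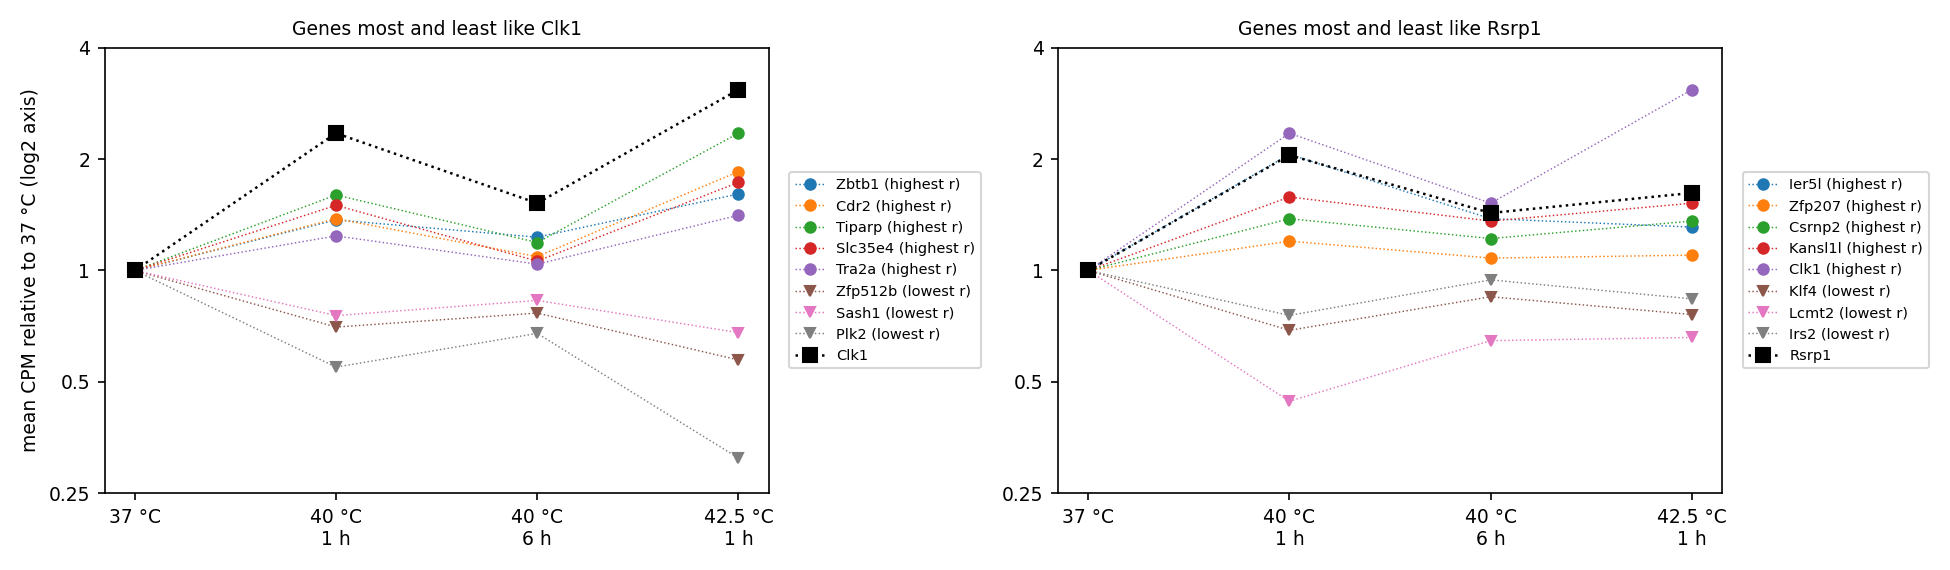
Mean CPM relative to 37 °C (y axis, log2) in the 4 groups (x axis) for Clk1 (left) and Rsrp1 (right), black squares, with the genes of the highest (circles) and lowest (triangles) coefficients; dotted lines only join the points of a gene. Clk1 and the 5 genes most like it were highest at 42.5 °C, whereas Rsrp1 and Ier5l were highest after 1 h at 40 °C. The choice of genes by r over the same libraries favours such likeness.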

How the data were processed

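Total RNA of CHO cells was sequenced by the authors in 16 libraries with a TruSeq RNA kit on a NextSeq. Per the study's methods, reads were trimmed, mapped to the Chinese hamster genome CHOK1GS_HDv1 and counted in CLC Genomics Workbench, and the submitters' processing notes name bcl2fastq. The authors deposited raw counts per gene, without normalization. The annotation release, strandedness and treatment of reads with several mapping places are not given in the sources used here, and gene counts do not separate isoforms or transcripts that keep introns.

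Groups were compared pairwise with edgeR 4.0.16 in R 4.3.3 (quasi-likelihood test, filterByExpr, TMM, Benjamini-Hochberg over all genes tested, two-sided). A gene was called at an adjusted p under 0.05 and a change of at least 1.5-fold. Intervals are at 95%. CPM were scaled by TMM over all 16 libraries, and correlations used log2 CPM with a prior count of 2. In simulated data, 200 of 200 genes changed 2-fold were recovered in each of the 6 comparisons, with 0 or 1 false calls. The changed genes were well counted. The simulated spread was smaller than that of Clk1, which had a coefficient of variation of 19.5% at 40 °C for 1 h. The simulation thus checks the code and does not measure power or error for changes near 1.5-fold. The alternatives were DESeq2 1.42.0 (its size factors, and its Wald test), no filter, at least 10 counts in every library, a shared fit, a replicate block, all 4 controls, adjusted p alone, and each library left out. The study states that a control library was excluded as inconsistent with its group, and its table of changed genes lists 3 controls. Library D at 37 °C was taken to be that library and left out, because an earlier look at these data found it far from the others. Total counts were 10504192 to 14668365, and a floor of 3 counts is 0.205 to 0.286 CPM.

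Members and lists were chosen with earlier results of these data known. Genes named are the 5 members, list genes called in a comparison (at most 6 per list and comparison), and the 5 highest and 3 lowest correlations with Clk1 and Rsrp1. Sequences were not used here. Positions in the RefSeq table (CriGri-PICRH-1.0, another assembly than the one mapped to) served only to find neighbouring and overlapping genes.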

Additional observations from a re-analysis of the deposited data

Results flagged for a closer look

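The response of Clk1 and Clk2 differed between the heated groups that took no part in the choice of the genes. How far the 42.5 °C libraries differ from those at 40 °C for 6 h is at the same time the difference between both groups' changes from 37 °C, and edgeR's quasi-likelihood test called it for both genes. In log2 units Clk1 was 1.01 higher at 42.5 °C, with an SE of 0.10 and an adjusted p of 8.83e-07, and Clk2 stood at -0.93 with an SE of 0.09 and an adjusted p of 4.67e-07, each in 4 of 4 libraries without overlap. In this comparison 8.25% of 10427 genes were called and 5615 had an unadjusted edgeR p under 0.05. The share of all genes without overlap was not computed. Clk2 had been above every 37 °C library after 6 h at 40 °C and was below every one at 42.5 °C. Its rise after 6 h over 37 °C was under the fold limit (0.31, edgeR adjusted p = 0.00913, and 0.0591 with all 4 control libraries). The 42.5 °C and the 40 °C 6 h groups differ in both temperature and duration. At equal duration, Clk2 at 42.5 °C stood at -0.56 against 40 °C for 1 h (SE 0.09, adjusted p = 0.000209), and at equal temperature, 6 h at 40 °C stood at 0.37 against 1 h (SE 0.09, adjusted p = 0.00685), both under the fold limit. For Clk1 these differences carry no test. Within the groups of 4 libraries, no library of any of the 5 genes stood far enough from the others to be singled out by Dixon's test.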

How the results depend on the processing

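Of 420 fold changes of the members recomputed under alternatives, 410 kept their direction and either their call (adjusted p and fold limit jointly) or, where untested, moved by less than the spread between replicates. Of the 294 that were tested, 18 crossed the adjusted p of 0.05 taken alone, 7 of them for Clk4 between 6 h and 1 h at 40 °C, 4 for Rsrp1 between 42.5 °C and 40 °C 6 h, and 2 each for Clk2 and Clk3 after 6 h at 40 °C. With all 4 controls, the genes called after 1 h at 40 °C went from 35 to 3, Clk1 after 6 h from 0.61 to 0.54 and out of the calls (members called, 0), and Clk3 after 1 h from 0.15 to 0.06. With adjusted p alone, genes called against 37 °C were 172 (40 °C 1 h), 3091 (40 °C 6 h) and 4510 (42.5 °C), and between heated groups 1931 (6 h and 1 h), 3767 (42.5 °C and 40 °C, 1 h) and 4904 (42.5 °C and 40 °C 6 h). Members called by that rule were 4 (40 °C 6 h against 37 °C), 3 (42.5 °C against 37 °C), 2 (6 h against 1 h), 1 (42.5 °C against 40 °C, 1 h) and 2 (42.5 °C against 40 °C 6 h). Leaving out each library gave 23 to 56 genes called after 1 h at 40 °C (fewest without its library C, most without its library B), 0 to 1 members called after 6 h, with Clk1 at 0.56 to 0.67, and 0 to 1 members between 42.5 °C and 40 °C at 1 h, with Clk2 at -0.63 to -0.50. Clk2 at 42.5 °C against 37 °C ranged over -0.68 to -0.56. The sign turned for Clk3 between 42.5 °C and 40 °C at 1 h without 42.5 °C library C (0.02; range -0.07 to 0.02) and for Clk4 between 42.5 °C and 40 °C 6 h without 42.5 °C library B (-0.04; range -0.04 to 0.14), neither called. The cause of these moves was not tested beyond the smaller number of libraries. Of the 5 genes most like Clk1, 2 were shared with the 5 found by Spearman's rho, and of the 3 least like it 1; of the 5 most like Rsrp1, 3. With all 16 libraries, 1 of the 3 least like Clk1 was shared. Libraries of the same letter were little more alike than others (mean correlation of deviations 0.05, -0.05 to 0.17, over 21 same-letter pairs, and -0.02 over 63 others). With so few libraries this does not exclude a pairing. With a replicate block the SE of Clk1 against 37 °C went from 0.12 to 0.06 after 1 h at 40 °C and stayed at 0.07 after 6 h. With a replicate block the genes called in the 6 comparisons were 48, 333, 717, 138, 546 and 858, in the order of the counts by adjusted p alone, and no member's call changed; of the list genes, Srsf5 (-0.55) and Ccnl1 (0.52) at 42.5 °C against 37 °C went out of the calls.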

Other observations

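Neighbours were the nearest named genes in the RefSeq gene order, picked after other values had been seen. Those tested were not called in any of the 6 comparisons, and no neighbour of Clk4 was tested. Since 0.334% to 8.25% of all genes were called in these comparisons, a lack of calls among so few genes says little. Beside Clk1 lie Bzw1 and Ppil3, and at 42.5 °C against 37 °C their log2 differences were 0.10 (SE 0.04, edgeR adjusted p = 0.0724) and 0.29 (SE 0.09, adjusted p = 0.0135), where Clk1 itself rose by 1.62. Beside Clk2 lie Scamp3 at 0.02 (SE 0.05, adjusted p = 0.839) and Hcn3 at -0.12 (SE 0.24, adjusted p = 0.743). Beside Clk3 lie Edc3 at 0.18 (SE 0.11, adjusted p = 0.204) and Arid3b at 0.51 (SE 0.20, adjusted p = 0.0499), under the fold limit. Syf2, a splicing factor gene beside Rsrp1, stood at 0.21 (SE 0.04, adjusted p = 0.00151), under the fold limit. An unnamed RefSeq gene model overlaps Clk1, and whether its reads were counted to Clk1 was not tested.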
